A study of Mus musculus with 6 samples.

Results

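The genes described here are 35 macrophage and monocyte genes, taken by symbol from a table of 19288 genes counted in subcutaneous lung carcinoma tumours of mice. Each of the 35 symbols occurred once in the table. They were divided by role into 7 lineage and pan-macrophage genes, 5 Fc receptors and adaptors, 3 complement C1q chains, 2 scavenger receptors, 6 resident-like genes, 6 lipid-associated and lysosomal genes, and 6 monocyte and inflammatory genes. All 35 passed the filter on low counts, which kept 13632 genes.

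The tumours grew from LLC1 cells, an established Lewis lung carcinoma line, placed under the skin of mice with a beta-hCG transgene and removed at 30 days. The hosts of all groups were bred from a CB57BL/6 mother (spelled so in the labels) and a transgenic FVB father. Progesterone tumours came from ovariectomized transgenic mice that received progesterone for 28 days, vehicle tumours from ovariectomized transgenic mice that received vehicle for the same time, and transgenic tumours from transgenic mice for which the labels name neither surgery nor supplement. Each of the 3 groups has 2 libraries. Every host carries the transgene, so no group shows tumours without it, and the promoter that drives it is not given in the sources used here. Vehicle and transgenic tumours differ by ovariectomy and by vehicle together, and these cannot be told apart. The labels do not say that the 2 libraries of a group came from separate animals, and the p-values speak only for the scatter of these libraries.

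Macrophages in a tumour arise from blood monocytes and from macrophages already resident in the tissue, and both depend largely on signals through the receptor Csf1r. Resident-like cells are known for receptors that clear haemoglobin, glycoproteins and folate, lipid-associated cells for Trem2, Gpnmb and Spp1, and inflammatory cells for Nos2. Arg1, which like Nos2 consumes arginine, is known from alternatively activated macrophages of the mouse, and it is grouped below with the monocyte and inflammatory genes. The transcription factor PU.1, encoded by Spi1, binds purine-rich sites built on the letters GAGGAA and is required for the macrophage lineage.

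Sequence just upstream of the start site is shown first for 7 members that carry the results below: the lineage genes Cd68 and Cd53, the complement gene C1qb, the resident-like genes Mrc1 and Cd163, the scavenger receptor Marco and the lipid-associated gene Spp1. The sequences are from RefSeq on build GRCm38.p6, written 5′ to 3′ toward the gene, and stop before the annotated gene body. Capitals mark GAGGAA, or TTCCTC where it lies on the other strand.
Cd68, chr11:69666171-69666420, minus strand: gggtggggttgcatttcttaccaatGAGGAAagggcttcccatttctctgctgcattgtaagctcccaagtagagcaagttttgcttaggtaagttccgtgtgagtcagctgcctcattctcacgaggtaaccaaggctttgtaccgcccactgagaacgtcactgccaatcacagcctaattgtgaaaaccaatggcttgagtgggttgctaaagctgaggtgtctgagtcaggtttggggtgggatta
Cd53, chr3:106790150-106790399, minus strand: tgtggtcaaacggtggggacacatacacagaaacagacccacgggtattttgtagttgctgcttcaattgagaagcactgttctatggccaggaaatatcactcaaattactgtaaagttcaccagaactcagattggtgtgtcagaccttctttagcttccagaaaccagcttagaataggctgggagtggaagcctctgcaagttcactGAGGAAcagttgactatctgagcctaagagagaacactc
C1qb, chr4:136886201-136886450, minus strand: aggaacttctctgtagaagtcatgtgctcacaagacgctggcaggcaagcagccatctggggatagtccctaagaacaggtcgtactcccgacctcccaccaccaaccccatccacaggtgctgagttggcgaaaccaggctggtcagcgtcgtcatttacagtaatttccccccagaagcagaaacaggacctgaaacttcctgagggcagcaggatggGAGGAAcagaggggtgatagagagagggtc
Mrc1, chr2:14229164-14229391, plus strand: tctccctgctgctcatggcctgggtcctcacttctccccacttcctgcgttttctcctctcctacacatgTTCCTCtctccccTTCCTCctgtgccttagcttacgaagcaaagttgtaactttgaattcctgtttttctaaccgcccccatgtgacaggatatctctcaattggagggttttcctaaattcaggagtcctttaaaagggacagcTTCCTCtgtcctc
Cd163, chr6:124304401-124304650, plus strand: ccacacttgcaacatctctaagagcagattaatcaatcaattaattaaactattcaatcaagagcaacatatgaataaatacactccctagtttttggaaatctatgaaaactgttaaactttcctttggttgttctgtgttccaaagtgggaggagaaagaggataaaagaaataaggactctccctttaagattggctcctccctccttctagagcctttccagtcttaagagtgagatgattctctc
Marco, chr1:120505025-120505274, minus strand: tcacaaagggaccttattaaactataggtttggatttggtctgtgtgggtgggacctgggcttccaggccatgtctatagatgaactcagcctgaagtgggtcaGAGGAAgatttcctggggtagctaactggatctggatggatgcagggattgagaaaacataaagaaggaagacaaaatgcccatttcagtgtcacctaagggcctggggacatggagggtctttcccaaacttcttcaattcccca
Spp1, chr5:104434861-104435110, plus strand: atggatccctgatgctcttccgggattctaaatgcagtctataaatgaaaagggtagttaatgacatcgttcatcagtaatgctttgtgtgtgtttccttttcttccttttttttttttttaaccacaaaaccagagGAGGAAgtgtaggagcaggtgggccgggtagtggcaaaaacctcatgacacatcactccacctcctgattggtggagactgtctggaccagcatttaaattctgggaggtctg

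RefSeq windows of 250 bases upstream of a start site were found for 24 of the 35 members, 32 windows in all. GAGGAA, searched on both strands, was in 17 of these windows, or 53.1%, against 23.3% of all 32851 mouse windows of the same length. The 17 windows belong to 14 members, with at least 1 from each of the 7 roles, and several members have more than 1 window. The windows of Fcgr3 overlap each other, as do those of Ly6c2, so in each of these genes 1 site was counted in 2 windows. The longer form GAGGAAGT, which contains GAGGAA, was in 12.5% of member windows and 2.44% of all windows, in C1qc, Ly6c2 and Spp1. The AP-1 letters TGANTCA were in 15.6% of member windows against 6.75% of all windows, and the E-box CANGTG was in 34.4% against 39.5%. The C/EBP letters TTGNGCAA were in 0 of 32 member windows and in 2.61% of all windows. Of the windows shown above, only that of Cd163 holds no GAGGAA. Whether GAGGAA goes with the direction of a gene's change was not tested.

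The libraries held 19526775 to 30083925 counts. Replicates differed far beyond counting error: chi-square divided by its degrees of freedom was 65.3 for the progesterone pair, 38.8 for the vehicle pair and 98.1 for the transgenic pair. The first principal component set transgenic library 2 apart and the second progesterone library 2. The label calls the material Lewis lung carcinoma cells, but markers of leukocytes, mast cells, fibroblasts and endothelial cells were all counted, so the RNA is that of whole tumours. In such bulk RNA, fewer macrophages and less RNA per macrophage cannot be told apart, and a gene such as Spp1, Apoe, Arg1 or Nos2 can also be transcribed by other cells of the tumour.

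Levels are given as CPM, the count of a gene relative to the library's total, scaled between libraries by the trimmed mean of M values (TMM). Per kilobase of exon, averaged over the 6 libraries, Spp1 stood highest at 1199 CPM per kb, followed by Lyz2 at 892. A group of 5 genes followed between 121 and 149 CPM per kb, namely Ctss, C1qa, C1qb, Apoe and Lgmn. Csf1r lay at 17.5 CPM per kb, and the lowest members were Marco at 0.997, Ly6c2 at 0.687 and Trem2 at 0.204. Spp1 made up a large but uneven part of the sums over members. It held 27.4% and 20.2% of the summed member CPM in progesterone libraries and 57.4% and 38.1% in vehicle libraries. In transgenic libraries it held 45.5% and 15.7%. Lyz2 exceeded Spp1 in progesterone library 2 (1185 against 1152 CPM) and in transgenic library 2 (1523 against 868 CPM). The sums did not follow Spp1 alone, since transgenic library 1 had more Spp1 than transgenic library 2 but the smaller sum. Summed over all 35 members the CPM was 6556 and 5703 in progesterone, 7204 and 5356 in vehicle, and 4095 and 5523 in transgenic libraries. Without the 3 genes Spp1, Lyz2 and Apoe the sums were 2768 and 2943 in progesterone, 2069 and 1884 in vehicle, and 1410 and 2826 in transgenic libraries.

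The comparison of progesterone with vehicle tumours asks what progesterone does in ovariectomized hosts. Most macrophage genes were higher in progesterone tumours: 31 of 35 had a positive log2 fold change, against 51.1% of all genes tested, and 4 a negative one, against 48.9%, and the member median was 0.61, against 0.0065 over all genes. In 27 members both progesterone libraries lay above both vehicle libraries, which held for 18.5% of all genes. In 2 members, Spp1 and Mertk, both progesterone libraries lay below both vehicle libraries, against 17.8% of all genes. No member passed the threshold, with 0 of 35 called by edgeR's quasi-likelihood test at a Benjamini-Hochberg adjusted p under 0.05 and 0% of all genes called. At an unadjusted p under 0.05 there were 9 members higher, against 2.77% of all genes, and 0 lower, against 2.52%. The lowest adjusted p of a member was 0.868, for Marco. DESeq2 called 1 member in this comparison, Marco, at an adjusted p of 0.0051, and 0.539% of all genes. limma-voom called 0 members and 0% of all genes.

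**Figure D1:**
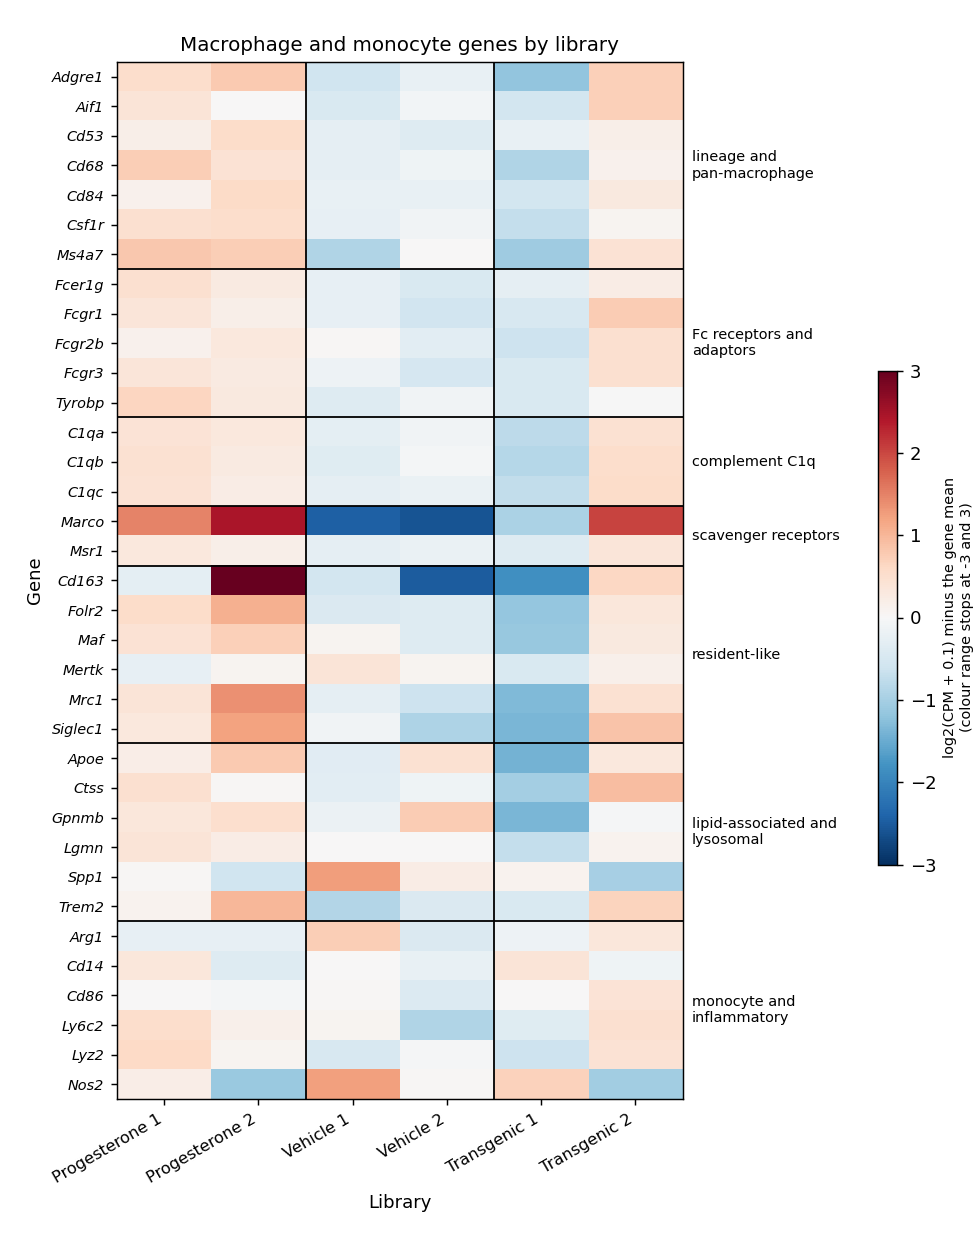
Each row is 1 of the 35 genes, grouped by role, and each column is 1 library, with colour for log2(CPM + 0.1) minus the mean of that gene over the 6 libraries. Most rows are red in both progesterone columns and in transgenic library 2 and blue in transgenic library 1, while Spp1 and Nos2 are red in vehicle library 1.

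All 7 lineage genes were higher in progesterone tumours, each without overlap of the libraries, and their median log2 fold change was 0.70. Csf1r, the receptor for CSF1 and IL-34, had 135 and 140 CPM in progesterone libraries, 81.2 and 89.5 CPM in vehicle libraries, and 59.5 and 103 CPM in transgenic libraries. Both progesterone values exceeded the other 4, and the transgenic pair enclosed the vehicle pair. Its log2 fold change over vehicle was 0.69 ± 0.25 (SE; unadjusted p = 0.0284, adjusted p = 0.939, edgeR). An exon of Hmgxb3 on the opposite strand overlaps 15.1% of the Csf1r exon bases, and whether the counting used the strand is not given.

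Cd68, a lysosomal glycoprotein used to stain macrophages, had 119 and 96.2 CPM in progesterone libraries, 59.5 and 65.8 CPM in vehicle libraries, and 38.2 and 78.1 CPM in transgenic libraries. The order of the groups was that of Csf1r, and the log2 fold change over vehicle was 0.78 ± 0.32 SE. Cd53, a leukocyte tetraspanin, had 56.1 and 72.8 CPM in progesterone libraries, 41.2 and 38.2 CPM in vehicle libraries, and 42.4 and 56.1 CPM in transgenic libraries. Its vehicle libraries were the 2 lowest of the 6, and the log2 fold change over vehicle was 0.70 ± 0.21 SE. The other 4 lineage genes were Adgre1, which encodes F4/80, Aif1, which encodes IBA1, the adhesion receptor Cd84, and Ms4a7. They ranged from 7.94 CPM for Aif1 to 61.5 CPM for Adgre1 in progesterone libraries, and from 5.66 CPM for Aif1 to 30.3 CPM for Adgre1 in vehicle libraries.

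Fc receptors bind antibody. Activating ones signal through the gamma chain that Fcer1g encodes and Fcgr2b through an inhibitory motif of its own, while Tyrobp encodes an adaptor of Trem2 and other receptors. All 5 genes of this role were higher in progesterone tumours without overlap, and their median log2 fold change was 0.68. Tyrobp, also known as DAP12, had 67.6 and 53.2 CPM in progesterone libraries, 32.9 and 40.1 CPM in vehicle libraries, and 31.6 and 43.1 CPM in transgenic libraries. Both progesterone libraries were the highest, at a log2 fold change over vehicle of 0.73 ± 0.23 SE. Fcer1g, the shared gamma chain, had 43.4 and 38.0 CPM in progesterone libraries, 26.5 and 22.7 CPM in vehicle libraries, and 25.9 and 36.7 CPM in transgenic libraries, at 0.72 ± 0.23 SE over vehicle. Mast cells use Fcer1g as well. Their 8 markers summed to 111 and 213 CPM in progesterone libraries, 33.3 and 35.1 CPM in vehicle libraries, and 18.4 and 36.8 CPM in transgenic libraries. The part of mast cells in the Fcer1g difference was not tested.

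Fcgr3, a low-affinity activating receptor, had 66.2 and 62.1 CPM in progesterone libraries, 46.0 and 35.9 CPM in vehicle libraries, and 37.5 and 71.3 CPM in transgenic libraries. The highest of its 6 values was that of transgenic library 2, and the log2 fold change of progesterone over vehicle was 0.64 ± 0.30 SE. Fcgr3 shares 9.58% of its 50-base windows with Fcgr2b, the inhibitory receptor, so reads can be exchanged between them. Fcgr2b ran from 135 to 154 CPM in progesterone libraries, against 99.5 to 127 CPM in vehicle libraries. Fcgr1, the high-affinity receptor, had 19.9 and 17.7 CPM in progesterone libraries and 13 and 10.4 CPM in vehicle libraries.

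C1qa, C1qb and C1qc encode the 3 chains of C1q, which starts the classical complement pathway and in tissues is made mostly by macrophages. They lie side by side on the minus strand of chromosome 4 (GRCm38), C1qb at chr4:136880129-136886187, C1qc at chr4:136889804-136893065 and C1qa at chr4:136895917-136898803. C1qa had 190 and 178 CPM in progesterone libraries, 118 and 133 CPM in vehicle libraries, and 83.0 and 198 CPM in transgenic libraries. C1qb had 183 and 160 CPM in progesterone libraries, 104 and 127 CPM in vehicle libraries, and 73.4 and 193 CPM in transgenic libraries. C1qc had 153 and 132 CPM in progesterone libraries, 93.0 and 97.4 CPM in vehicle libraries, and 67.1 and 164 CPM in transgenic libraries.

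The 3 chains kept the same order of libraries, with transgenic library 2 highest, both progesterone libraries next, both vehicle libraries below them and transgenic library 1 lowest. Their log2 fold changes of progesterone over vehicle were 0.55 ± 0.36 SE for C1qa, 0.57 ± 0.40 SE for C1qb and 0.58 ± 0.37 SE for C1qc, and none had an unadjusted p under 0.05.

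The scavenger receptors take up modified lipoproteins and microbes. Msr1, scavenger receptor A, had 144 and 131 CPM in progesterone libraries, 96.5 and 102 CPM in vehicle libraries, and 88.7 and 151 CPM in transgenic libraries, at a log2 fold change over vehicle of 0.47 ± 0.25 SE. Marco (chr1:120474538-120505024, minus strand) was rare and nearly absent from vehicle tumours. It had 64 and 119 counts in progesterone libraries, 2 and 1 counts in vehicle libraries, and 10 and 86 counts in transgenic libraries. That is 2.47 and 4.92 CPM in progesterone libraries, 0.0686 and 0.0530 CPM in vehicle libraries, and 0.370 and 3.62 CPM in transgenic libraries. It passed the filter through its counts in progesterone and transgenic libraries, since its vehicle counts were too low to pass. That it was tested is therefore tied to its being higher outside the vehicle group.

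The vehicle counts of Marco are at or below 3, the limit that a count of 0 allows, so its fitted log2 fold change of 5.79 ± 1.28 SE (unadjusted p = 0.0026, edgeR) depends on the prior count. The depth-scaled ratio of summed counts of progesterone to vehicle libraries was 62.0, with a 95% exact counting interval of 20.9 to 303, which leaves out the spread between tumours. With Cd163, Marco was 1 of the 2 members called at an adjusted p under 0.05 when the filter on low counts was dropped (adjusted p = 0.0087 by edgeR, 0.477% of all genes called).

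**Figure D2:**
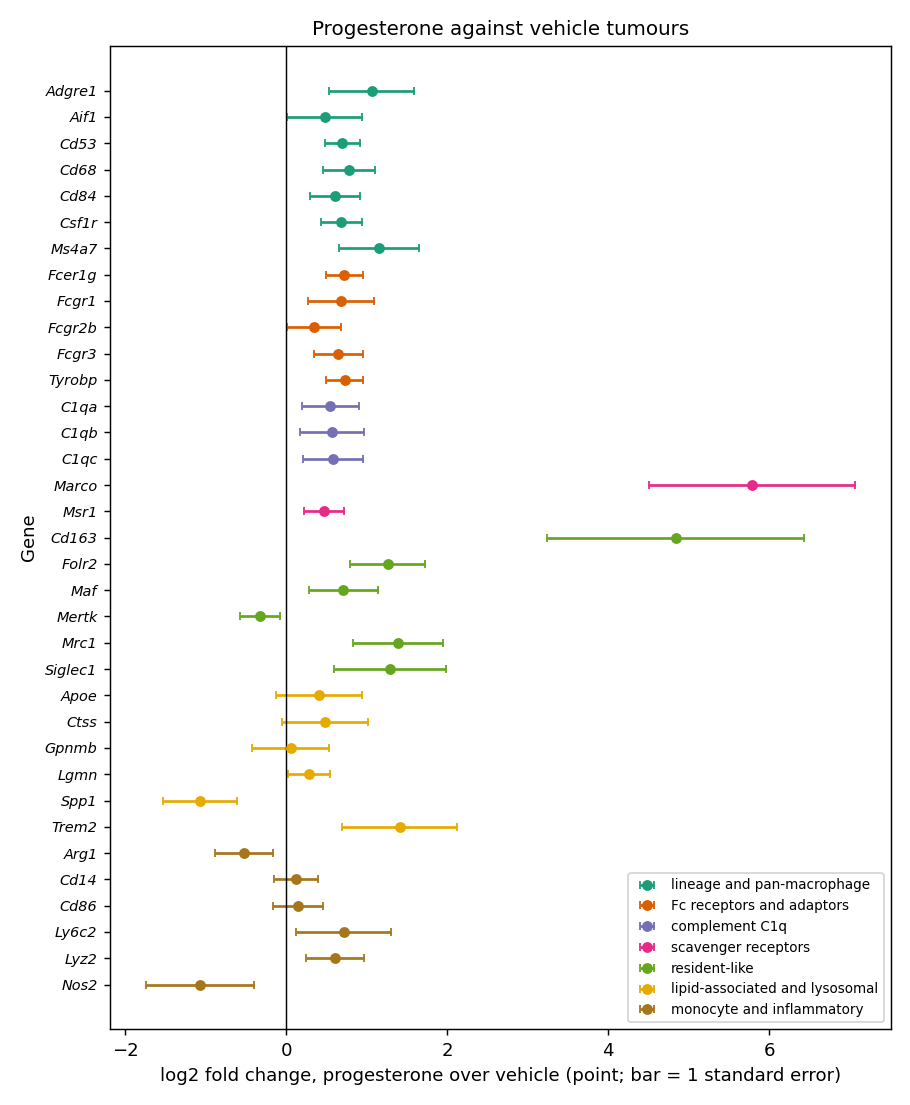
Log2 fold changes of progesterone over vehicle tumours for all 35 genes, with 1 standard error, coloured by role. Lineage, Fc receptor and C1q genes sit close together between 0.35 and 1.15, Cd163 and Marco lie far to the right with wide errors, and Spp1, Nos2, Arg1 and Mertk lie below 0.

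Of the 6 resident-like genes, 5 were higher in progesterone tumours without overlap and 1, Mertk, was lower without overlap, and the median log2 fold change was 1.27. Mrc1 (chr2:14229392-14332057, plus strand), the mannose receptor CD206, had 220 and 434 CPM in progesterone libraries, 141 and 109 CPM in vehicle libraries, and 67.5 and 233 CPM in transgenic libraries. Progesterone library 2 was the highest of the 6, and transgenic library 2 lay between the 2 progesterone libraries. The log2 fold change over vehicle was 1.39 ± 0.56 SE (unadjusted p = 0.0428, adjusted p = 0.939, edgeR), and 0.82 without progesterone library 2.

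Folr2, folate receptor beta, had 31.8 and 45.4 CPM in progesterone libraries, 15.8 and 16.4 CPM in vehicle libraries, and 9.63 and 27.4 CPM in transgenic libraries. Both progesterone libraries exceeded the other 4, and the log2 fold change over vehicle was 1.26 ± 0.46 SE. An antisense gene, Gm10602, overlaps 63.1% of the Folr2 exon bases, so part of the Folr2 count could be antisense if counting ignored the strand.

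Cd163 (chr6:124304656-124330527, plus strand), the receptor for haemoglobin bound to haptoglobin, spanned a wide range of levels. It had 4.29 and 126 CPM in progesterone libraries, 3.57 and 0.848 CPM in vehicle libraries, and 1.41 and 8.18 CPM in transgenic libraries. The group difference rests on progesterone library 2, since progesterone library 1 lay just above vehicle library 1 and below transgenic library 2. The log2 fold change over vehicle was 4.84 ± 1.60 SE with that library and 0.94 without it.

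Siglec1, or CD169, had 21.7 and 40.4 CPM in progesterone libraries and 16.2 and 9.12 CPM in vehicle libraries, and Maf, a transcription factor of resident-like cells, had 79.7 and 97.4 CPM in progesterone libraries and 62.8 and 45.4 CPM in vehicle libraries. Mertk, which mediates uptake of dying cells, had 47.5 and 59.5 CPM in progesterone libraries, 74.1 and 60.1 CPM in vehicle libraries, and 41.3 and 63.4 CPM in transgenic libraries. The closest progesterone and vehicle values of Mertk differed by less than 1 CPM.

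A list of 12 further resident-like genes, which are not among the 35, was set beside them. Like the members, it was chosen with earlier results of these data known, so it is not independent evidence. All 10 that were tested were higher in progesterone tumours, 8 of them without overlap, against 18.5% of all genes, and 6 at an unadjusted p under 0.05, against 2.77%. edgeR called 0 of them and 0% of all genes, and the median log2 fold change was 1.77. The size rests in part on progesterone library 2: the mean log2 CPM over the list of 12 was 3.40 and 5.40 in progesterone libraries, 2.66 and 2.01 in vehicle libraries, and 1.98 and 3.31 in transgenic libraries. Without progesterone library 2, an alternative chosen after seeing the data, 8 of 10 tested were higher and 2 lower (Lyve1 and F13a1), 2 were higher at an unadjusted p under 0.05, against 1.75% of all genes, and the median was 1.0. Gas6, the ligand of Mertk, had 33.8 and 70.2 CPM in progesterone libraries, 13.8 and 13.1 CPM in vehicle libraries, and 6.52 and 20.8 CPM in transgenic libraries. Ccl8, a monocyte chemokine, had 27.3 and 130 CPM in progesterone libraries, 3.36 and 3.02 CPM in vehicle libraries, and 3.15 and 42.0 CPM in transgenic libraries. Pf4, a chemokine of resident-like macrophages and platelets, had 46.4 and 51.6 CPM in progesterone libraries, 29.0 and 19.5 CPM in vehicle libraries, and 34.7 and 23.1 CPM in transgenic libraries. Ccl8 showed the pattern of Mrc1, with progesterone library 2 highest and transgenic library 2 second, whereas Pf4 was highest in both progesterone libraries. Their log2 fold changes over vehicle were 1.95 ± 0.56 SE for Gas6, 4.62 ± 1.25 SE for Ccl8 and 1.01 ± 0.28 SE for Pf4, and without progesterone library 2 they were 1.33, 3.09 and 0.94 in that order.

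**Figure D3:**
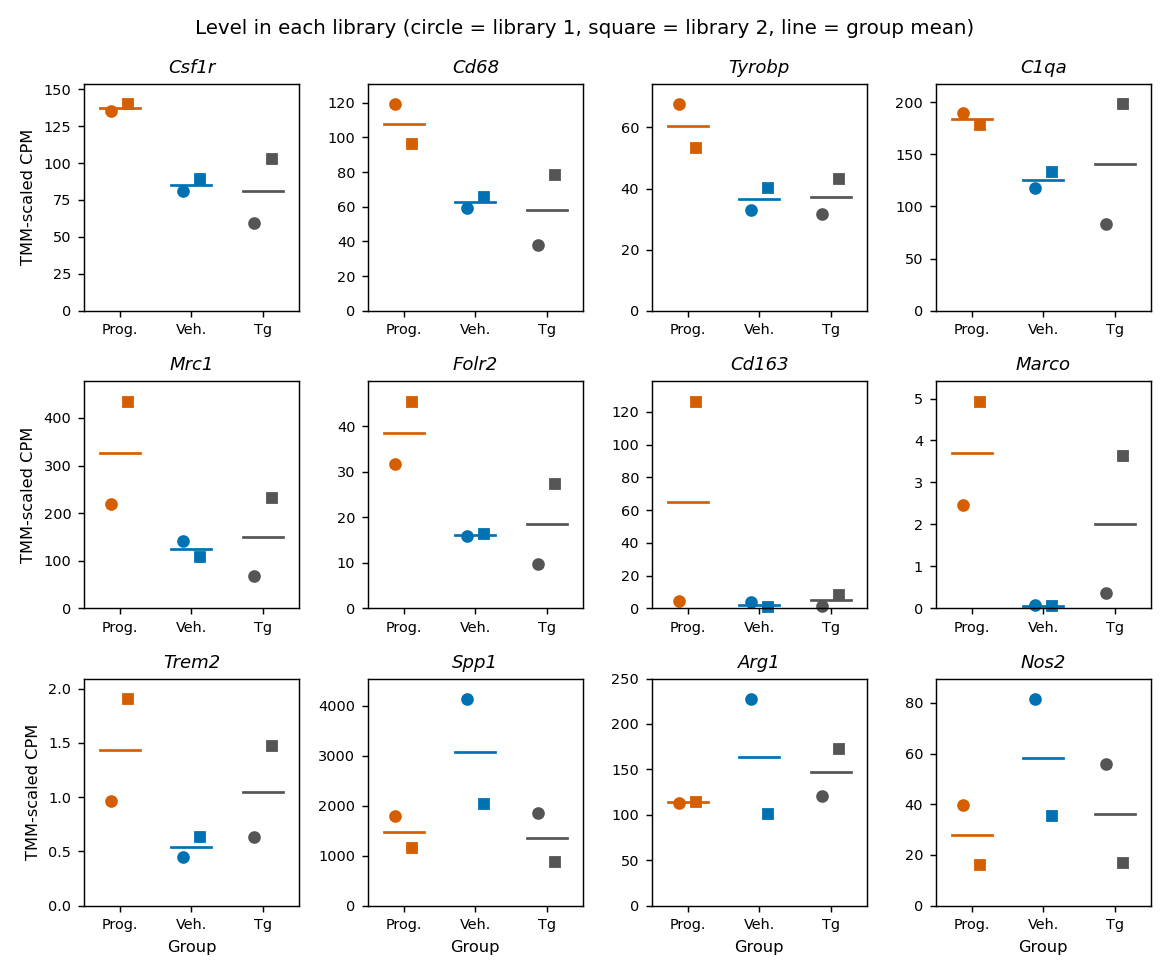
Level of 12 genes in each library in TMM-scaled CPM, with progesterone (Prog.), vehicle (Veh.) and transgenic (Tg) tumours from left to right. Circles are library 1, squares library 2 and lines group means of 2 libraries. Cd163 is high in 1 progesterone library only, at 126 CPM, and Spp1 is highest in vehicle library 1, at 4134 CPM.

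The 6 lipid-associated and lysosomal genes were mixed, with 5 higher and 1 lower in progesterone tumours and a median log2 fold change of 0.35. Spp1 (chr5:104435118-104441050, plus strand), which encodes osteopontin, had 1798 and 1152 CPM in progesterone libraries, 4134 and 2040 CPM in vehicle libraries, and 1863 and 868 CPM in transgenic libraries. Both vehicle libraries were the highest, and the 2 vehicle values were themselves about as far apart as the 2 groups. The log2 fold change over vehicle was -1.07 ± 0.46 SE (unadjusted p = 0.0527, adjusted p = 0.944, edgeR), and -0.47 without vehicle library 1. On the same strand, Gm42793 overlaps 18.8% of the Spp1 exon bases.

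Trem2, a lipid-sensing receptor, had 0.966 and 1.90 CPM in progesterone libraries, 0.446 and 0.636 CPM in vehicle libraries, and 0.630 and 1.48 CPM in transgenic libraries. It was the lowest member per kilobase, and its log2 fold change over vehicle was 1.41 ± 0.71 SE, and 0.84 without progesterone library 2. Gpnmb, a lysosome-linked glycoprotein, had 21.7 and 24.4 CPM in progesterone libraries, 15.3 and 29.0 CPM in vehicle libraries, and 6.56 and 16.8 CPM in transgenic libraries. Its vehicle libraries enclosed the progesterone libraries, at a log2 fold change of 0.06 ± 0.48 SE. The summed CPM of 8 osteoclast markers, among them Acp5 and Ctsk, was 520 and 308 in progesterone libraries, 33.7 and 297 in vehicle libraries, and 62.3 and 46.8 in transgenic libraries. Vehicle library 2 thus stood above vehicle library 1 in both Gpnmb and these markers, and their part in the Gpnmb values was not tested.

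Lgmn, the lysosomal protease legumain, had 354 and 317 CPM in progesterone libraries, 277 and 273 CPM in vehicle libraries, and 167 and 291 CPM in transgenic libraries, at a log2 fold change over vehicle of 0.29 ± 0.26 SE. Ctss, cathepsin S, had 258 and 190 CPM in progesterone libraries against 150 and 171 CPM in vehicle libraries, and was highest in transgenic library 2 at 356 CPM. Apoe, the lipid carrier apolipoprotein E, had 284 and 423 CPM in progesterone libraries and 195 and 339 CPM in vehicle libraries, which overlap. Among 16 further genes of lipid handling and the lysosome, 9 were higher and 7 lower in progesterone tumours, 4 were higher and 0 lower at an unadjusted p under 0.05, against 2.77% and 2.52% of all genes, the median log2 fold change was 0.05 and 0 were called. Lpl, which hydrolyses lipoprotein triglycerides, had 9.77 and 17.0 CPM in progesterone libraries, 1.17 and 4.98 CPM in vehicle libraries, and 5.74 and 10.1 CPM in transgenic libraries. Its log2 fold change over vehicle was 2.14 ± 0.70 SE, 1.42 without vehicle library 1 and 3.51 without vehicle library 2. For the cholesterol exporter Abca1 and the protease Ctsd the log2 fold changes of progesterone over transgenic tumours were 0.86 ± 0.28 SE and 0.91 ± 0.30 SE. That of Abca1 was 0.52 without progesterone library 2, and that of Ctsd was 0.50 without transgenic library 1 and 1.47 without transgenic library 2.

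The 6 monocyte and inflammatory genes divided most, with 4 higher and 2 lower in progesterone tumours, 2 higher without overlap (Lyz2 and Ly6c2) and a median log2 fold change of 0.14. Lyz2, lysozyme of macrophages and neutrophils, had 1706 and 1185 CPM in progesterone libraries, 806 and 1094 CPM in vehicle libraries, and 730 and 1523 CPM in transgenic libraries, at 0.61 ± 0.37 SE over vehicle, 0.32 without progesterone library 1 and 0.40 without vehicle library 1. Ly6c2, a surface protein of inflammatory monocytes, had 2.63 and 1.99 CPM in progesterone libraries, 1.89 and 0.901 CPM in vehicle libraries, and 1.37 and 2.53 CPM in transgenic libraries, at 0.71 ± 0.59 SE, 1.35 without vehicle library 1 and 0.29 without vehicle library 2. Both share windows with a close copy, Lyz2 15.4% with Lyz1 and Ly6c2 13.9% with Ly6c1. Neutrophils, the other source of Lyz2, had 9 markers that summed to 164 and 114 CPM in progesterone libraries, 177 and 177 CPM in vehicle libraries, and 240 and 51.9 CPM in transgenic libraries. The part of neutrophils in the Lyz2 differences was not tested.

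Nos2 (chr11:78920787-78960254, plus strand) makes nitric oxide from arginine. It had 39.5 and 16.0 CPM in progesterone libraries, 81.4 and 35.4 CPM in vehicle libraries, and 55.9 and 16.7 CPM in transgenic libraries. The groups overlap, the spread within each pair was about as large as the group difference, and the log2 fold change over vehicle was -1.08 ± 0.67 SE. It was -0.35 without vehicle library 1, -0.56 without progesterone library 2 and -1.88 without progesterone library 1. Arg1 (chr10:24915221-24927484, minus strand), which splits arginine to ornithine and urea, had 113 and 114 CPM in progesterone libraries, 227 and 100 CPM in vehicle libraries, and 121 and 172 CPM in transgenic libraries. Its log2 fold change over vehicle was -0.53 ± 0.36 SE, and 0.17 without vehicle library 1, so the sign rests on that library. Cd14, a receptor for bacterial lipopolysaccharide, ran from 63.5 to 107 CPM over all libraries, and Cd86, a co-stimulatory ligand, from 7.16 to 12.6 CPM, and in both the progesterone and vehicle libraries overlap.

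Among 12 further inflammatory and activation genes, of which 10 were tested, 4 were higher and 6 lower in progesterone tumours, 2 were higher at an unadjusted p under 0.05, against 2.77% of all genes, and 0 were called. Hmox1, which degrades haem, had 373 and 406 CPM in progesterone libraries, 180 and 188 CPM in vehicle libraries, and 202 and 162 CPM in transgenic libraries. Both progesterone libraries stood well above the other 4, at a log2 fold change of 1.1 ± 0.17 SE over transgenic tumours (adjusted p = 0.827 by edgeR and 4.0e-06 by DESeq2). Ptgs2, the inducible cyclooxygenase, had 182 and 144 CPM in progesterone libraries, 456 and 434 CPM in vehicle libraries, and 541 and 94.4 CPM in transgenic libraries, at -1.45 ± 0.67 SE over vehicle. Cxcl9, a chemokine induced by interferon gamma, had 8.46 and 1.41 CPM in progesterone libraries, 0.274 and 0.583 CPM in vehicle libraries, and 2.56 and 35.7 CPM in transgenic libraries. Its log2 fold change of vehicle over transgenic tumours was -5.51 ± 1.47 SE (adjusted p = 0.811, edgeR), and -2.59 without transgenic library 2.

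The contrast between resident-like and other programmes was followed within each library as a difference of mean log2 CPM over 6 genes each. Resident-like minus lipid-associated was -1.45 and -0.21 in progesterone libraries, -1.46 and -2.33 in vehicle libraries, and -1.79 and -1.09 in transgenic libraries. Progesterone library 1 and vehicle library 1 were thus alike, and the groups differ through progesterone library 2 and vehicle library 2. Resident-like minus inflammatory was -0.51 and 1.30 in progesterone libraries, -0.88 and -0.92 in vehicle libraries, and -1.67 and -0.086 in transgenic libraries. The 6 inflammatory genes include Arg1, and without it the difference was -0.29 and 1.62 in progesterone libraries, -0.46 and -0.62 in vehicle libraries, and -1.37 and 0.29 in transgenic libraries. With or without Arg1, both progesterone libraries were above both vehicle libraries, and the transgenic libraries differed from each other by more than the vehicle libraries did.

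Pairs of single genes were compared in the same way. The log2 ratio of Mrc1 to Nos2 CPM was 2.47 and 4.76 in progesterone libraries, 0.79 and 1.62 in vehicle libraries, and 0.27 and 3.80 in transgenic libraries. For Mrc1 to Spp1 it was -3.03 and -1.41 in progesterone libraries, -4.88 and -4.23 in vehicle libraries, and -4.78 and -1.90 in transgenic libraries. Relative to the lineage gene Csf1r, Mrc1 stood at 0.70 and 1.63 in progesterone libraries, 0.79 and 0.28 in vehicle libraries, and 0.18 and 1.18 in transgenic libraries. The Mrc1 to Csf1r ratio therefore overlaps between progesterone and vehicle tumours, while the ratios to Nos2 and Spp1 do not. For Spp1 this was fixed in advance, since Mrc1 was higher and Spp1 lower in progesterone tumours, each without overlap. That ratio restates the levels of the single genes.

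**Figure D4:**
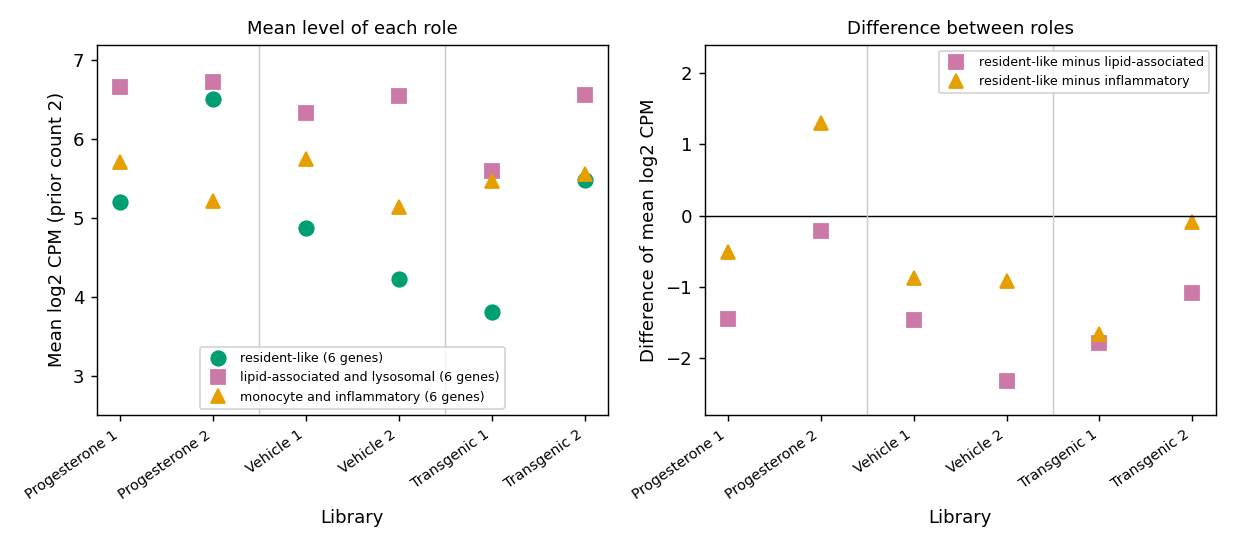
Left, mean log2 CPM of the resident-like, lipid-associated and inflammatory genes, 6 genes each, in every library. Right, the resident-like mean minus each of the other means. Progesterone library 2 has the highest resident-like mean, at 6.52, and transgenic library 1 the lowest, at 3.80.

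Markers of leukocytes in general were also higher in progesterone tumours. The 10 pan-leukocyte genes, which are not members, summed to 520 and 422 CPM in progesterone libraries, 377 and 372 CPM in vehicle libraries, and 290 and 527 CPM in transgenic libraries, with 9 of 10 higher in progesterone than in vehicle tumours and a median of 0.41 on the log2 scale. Scaling the libraries to the summed counts of these genes moved the median of all genes in progesterone against vehicle tumours to -0.31, and the member median to 0.31, with 27 members higher and 8 lower. Under that scaling the lineage genes kept a median of 0.40 with 7 of 7 higher, the Fc receptors 0.36 with 5 of 5 higher, the resident-like genes 1.0 with 5 of 6 higher and the C1q genes 0.25 with 3 of 3 higher. The lipid-associated genes had a median of 0.04 with 3 of 6 higher, and the inflammatory genes had -0.20 with 2 of 6 higher. The inflammatory sign is the reverse of that under TMM, but under both scalings their median lay above that of all genes, which was -0.31 here. Members without overlap above vehicle numbered 16, against 4.82% of all genes. Cd163 and Marco were then called, at edgeR adjusted p-values of 0.022 and 0.027, with 0.257% of all genes called.

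Markers of other cell types were compared in the same way. Of all genes tested, 51.1% were higher and 48.9% lower in progesterone than in vehicle tumours. edgeR called 0 of these markers and 0% of all genes. In progesterone against vehicle tumours, 7 of 8 mast cell markers, 6 of 6 tested T cell markers, 6 of 7 dendritic cell markers and 7 of 7 osteoclast markers were higher, with medians of 2.98, 2.14, 0.95 and 1.45. Lower were 6 of 8 neutrophil markers, 6 of 8 endothelial markers and 5 of 8 fibroblast markers, with medians of -0.30, -0.40 and -0.36, and of 2 tested B cell markers 1 was higher and 1 lower, with a median of 0.57. T cell markers were near 0 throughout, with sums of 5.06 and 4.39 CPM in progesterone libraries, 1.51 and 0.742 CPM in vehicle libraries, and 1.93 and 11.1 CPM in transgenic libraries. With vehicle sums this low, most T cell markers could pass the filter only through progesterone or transgenic libraries. That they were tested is therefore tied to their being higher outside the vehicle group, and the 6 of 6 is not independent of the filter. Dendritic cell sums ran from 13.9 to 16.8 CPM in progesterone libraries, from 7.82 to 9.75 CPM in vehicle libraries and from 14.5 to 14.8 CPM in transgenic libraries. Fibroblast sums were 5330 and 10572 CPM in progesterone libraries, 6957 and 11736 CPM in vehicle libraries, and 7792 and 2024 CPM in transgenic libraries. The progesterone and vehicle sums overlap. Endothelial sums were 103 and 237 CPM in progesterone libraries, 238 and 234 CPM in vehicle libraries, and 228 and 278 CPM in transgenic libraries. Progesterone library 2 thus lay between the vehicle libraries, and only progesterone library 1 was lower. B cell sums lay between 2.4 and 14.1 CPM in all libraries. The part of these cell types in the macrophage gene differences was not tested.

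The signals that feed the lineage did not shift as one. Of 12 growth factors, recruitment signals and their receptors, 7 were higher and 5 lower in progesterone than in vehicle tumours, 1 higher at an unadjusted p under 0.05, against 2.77% of all genes, and edgeR called 0, while the median log2 fold change was 0.18. Csf2rb, the shared receptor chain for GM-CSF, IL-3 and IL-5, had 48.1 and 44.8 CPM in progesterone libraries, 28.1 and 27.0 CPM in vehicle libraries, and 36.7 and 30.9 CPM in transgenic libraries, at 0.75 ± 0.19 SE over vehicle (adjusted p = 0.932 by edgeR and 0.047 by DESeq2). Ccl7, a monocyte chemoattractant, had a log2 fold change of -0.62 ± 0.33 SE, -0.37 without progesterone library 2 and -0.33 without vehicle library 1. Of 10 macrophage transcription factors tested, 6 were higher and 4 lower, 3 of them higher at an unadjusted p under 0.05, against 2.77% of all genes, with a median of 0.26 and 0 called. Spi1, which encodes PU.1, had 54.7 and 41.1 CPM in progesterone libraries, 24.9 and 32.9 CPM in vehicle libraries, and 26.5 and 37.0 CPM in transgenic libraries. Its log2 fold change over vehicle was 0.73 ± 0.26 SE, close to that of Csf1r. Mitf, a factor of lysosomal genes, had a log2 fold change of 0.55 ± 0.21 SE in vehicle over transgenic tumours.

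In vehicle against transgenic tumours the direction of the macrophage genes changed with 1 transgenic library. Of 35 members, 10 were higher in vehicle tumours, against 48.5% of all genes, and 25 were lower, against 51.5%, and the median log2 fold change was -0.25, against -0.011 over all genes. Only Spp1 had both vehicle libraries above both transgenic libraries, which held for 17.9% of all genes, and Cd53 and Marco had both below, against 17.7%. edgeR called 0 members and 0% of all genes, with 1 member higher (against 2.68% of genes) and 1 lower (against 2.89%) at an unadjusted p under 0.05, namely Spp1 and Marco. The Spp1 log2 fold change was 1.18 ± 0.46 SE (unadjusted p = 0.0372), 0.58 without vehicle library 1, 0.73 without transgenic library 2 and 1.83 without transgenic library 1. For Marco, 3 counts in the vehicle libraries stood against 96 in the transgenic libraries, a ratio of 0.0318 with a 95% exact counting interval of 0.0064 to 0.0957. Of the 96 counts, 86 were from transgenic library 2, and the fitted log2 fold change of -4.90 ± 1.27 SE, which depends on the prior count, was -2.48 without that library. DESeq2 called Marco alone of the members in this comparison, at an adjusted p of 0.048 with 0.523% of all genes called. limma-voom called 0 members and 0% of all genes here.

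The 2 transgenic libraries differed widely in these genes. Transgenic library 2 exceeded transgenic library 1 in 32 of 35 members, or 91.4%, where 51.5% of all genes did. The corresponding counts were 16 of 35 for progesterone library 2 over 1, against 6842 of 13632 genes, and 16 of 35 for vehicle library 2 over 1, against 7019. Transgenic library 1 was the lowest of the 6 libraries for 22 members. It lay below both vehicle libraries for 23 members, against 4977 of all 13632 genes tested. Transgenic library 2 was the highest of the 6 for 10 members. It lay above both vehicle libraries for 28 members, against 5466 of all 13632 genes tested. Without transgenic library 2 the member median of vehicle over transgenic tumours was 0.51, and without transgenic library 1 it was -0.60. The members without overlap below transgenic tumours numbered 28 without transgenic library 1 and 10 without vehicle library 1, and those above numbered 23 without transgenic library 2, where a single remaining library raises the background to between 29.1% and 40%.

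Progesterone against transgenic tumours compares ovariectomized, supplemented hosts with hosts that had neither step named. Of 35 members 29 were higher in progesterone tumours, against 51% of all genes, and 6 were lower, against 49%, at a median log2 fold change of 0.39 (0.0061 over all genes). In 10 members both progesterone libraries lay above both transgenic libraries and in 2, Cd86 and Arg1, below, against 14.5% of all genes each way. edgeR called 0 members and 0% of all genes, and 4 members were higher at an unadjusted p under 0.05, against 2.73%, with 0 lower, against 2.54%. These were Csf1r at 0.76 ± 0.25 SE, Cd68 at 0.89 ± 0.32 SE, Tyrobp at 0.69 ± 0.23 SE and Cd163 at 3.77 ± 1.5 SE. The Cd163 value was -0.16 without progesterone library 2. Without transgenic library 1 the Csf1r value was 0.42 and the Cd68 value 0.46, and without transgenic library 2 they were 1.21 and 1.49 in that order. The member median was 1.0 without transgenic library 2 and 0.024 without transgenic library 1, and the members without overlap above transgenic tumours then numbered 30, against 32.2% of all genes, and 11, against 33.7%. Leaving out progesterone library 1 gave 18, against 32.5%. DESeq2 and limma-voom called 0 members in this comparison, DESeq2 with 0.344% of all genes called and limma-voom with 0%.

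Over all 3 groups together, an edgeR test of any difference called 0 of 35 members, with 7 at an unadjusted p under 0.05, where 5.63% of all genes were. The lowest was Marco at an unadjusted p of 0.0082 and an adjusted p of 0.874. Progesterone library 2 was the highest of the 6 libraries for 12 members and progesterone library 1 for 7, and the progesterone libraries were the lowest for 2 members in all, whereas vehicle library 1 was the highest for 4.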

How the data were processed

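Raw read counts per gene were deposited by the authors for all 6 libraries. Per the labels' protocols, tumour tissue was extracted with TRIzol and mRNA was made into libraries with the NEBNext Ultra II Directional kit. The submitters' processing notes list DESeq, HISAT2 and HTSeq, with the build GRCm38.p6. Tool versions and the strand setting of the counting were not given in the sources used here. Members and all gene lists were chosen with earlier results of these data known.

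Counts were analysed in R 4.3.3 with edgeR 4.0.16. Genes were kept by filterByExpr (13632 of 19288), scaling between libraries was by TMM, and a single quasi-likelihood model with 1 mean per group was fitted to all 6 libraries, with 3 residual degrees of freedom. Calls required an adjusted p below 0.05 after Benjamini-Hochberg correction over all genes tested. Log2 fold changes are given with standard errors derived from the F statistic, and mean log2 CPM uses a prior count of 2. Tests were checked on simulated counts, with less spread between replicates than these libraries and larger changes than most members had. That check does not speak for power in these data. limma 3.58.1 (voom) and DESeq2 1.42.0 were run as alternatives, with other scalings, filters and left-out libraries. Levels in every library are given for 22 members: in each role the 3 with the smallest unadjusted p in any comparison, and Csf1r, Mrc1, C1qa, Trem2, Spp1, Arg1, Nos2 and Ly6c2. Other members are given as levels only. Of each further list of macrophage genes, up to 3 are named by the same measure, and some genes that this rule names are not reported here.

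Library totals of 19526775 to 30083925 make 3 counts, the limit that a count of 0 allows, worth 0.154 to 0.0997 CPM, which covers counting error but not PCR duplication. Coordinates (1-based) are from the GENCODE annotation of GRCm38, which held 19284 of the gene IDs. Irf8, on the list of transcription factors, was not analysed here.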

Additional observations from a re-analysis of the deposited data

How the results depend on the processing

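Each group had 2 libraries, and the common biological coefficient of variation was 0.295. The fold changes of the named genes kept their sign under the alternatives run, apart from 4. In progesterone over vehicle tumours Lgmn was -0.038 and Gpnmb -0.25 when scaled to the pan-leukocyte list, and with 1 library left out Gpnmb ran from -0.34 (without vehicle library 1; -0.03 without progesterone library 2) to 0.58 and Arg1 from -1.0 to 0.17 (without vehicle library 1). In progesterone over transgenic tumours Cd163 ran from -0.16 (without progesterone library 2) to 5.52. The cause was not tested.

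edgeR called 0 of 35 members. In progesterone against vehicle tumours 2 were called with no filter on low counts (0.477% of all genes), 2 with pan-leukocyte scaling (0.257%) and 1 with DESeq2 (0.539%). DESeq2 called 1 in vehicle against transgenic tumours (0.523%). For any difference among groups, 2 were called with no filter (0.726%) and 1 with pan-leukocyte scaling (0.359%). Counts at an unadjusted p under 0.05 and by limma-voom stand with each comparison. Leaving out 1 library at a time, the member median of vehicle over transgenic tumours ran from -0.60 to 0.51, that of progesterone over transgenic tumours from 0.024 to 1.0, and that of progesterone over vehicle tumours from 0.54 to 0.67.

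Counts of members without overlap were recomputed as alternatives chosen after seeing the data. Each is given with the share of all genes. Progesterone above vehicle gave 16 with pan-leukocyte scaling (4.82%) and 28 to 29 with a library left out (28.9% to 38.7%). Progesterone below vehicle gave 1 with library totals alone (10.8%), 3 with pan-leukocyte scaling (52.2%) and 2 to 5 with a library left out (29.6% to 36.9%). Vehicle above transgenic gave 5 with pan-leukocyte scaling (6.05%) and 2 to 23 with a library left out (30.2% to 37.9%). Vehicle below transgenic gave 5 with library totals (22.5%), 6 with pan-leukocyte scaling (9.13%) and 3 to 28 with a library left out (29.1% to 40%). Progesterone above transgenic gave 11 to 30 with a library left out (32.2% to 33.7%). Progesterone below transgenic gave 1 with library totals (12.2%) and 1 to 12 with a library left out (29.9% to 33.1%).

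The labels number the libraries 1 and 2 in every group. Deviations of same-numbered libraries from their group means correlated at -0.125 between progesterone and vehicle, 0.0804 between vehicle and transgenic and -0.174 between progesterone and transgenic tumours. With 2 libraries per group that differ widely, these values cannot tell whether the numbers mark pairs. With the number as a replicate block, 0 members were called and the member median of progesterone over vehicle tumours was 0.64.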
